A study of Homo sapiens with 12 samples.

Results

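The aryl hydrocarbon receptor pathway was followed here through 6 genes, the receptor AHR, its alternative dimerisation partner ARNT2, the repressors AHRR and TIPARP, and the target enzymes CYP1A1 and CYP1B1. They were taken by gene symbol from a table of 20323 genes, and where a symbol stood at more than 1 identifier the one with the highest total was kept. All 6 passed the filter on low counts, as did 12718 genes in all. AHR had a second identifier, with 47.9 estimated counts over all libraries against 24015 for the one kept.

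AHR is a ligand-activated transcription factor of the basic helix-loop-helix PAS family. In the cytosol it is held by HSP90 and the co-chaperone p23. Ligands such as the polycyclic aromatic hydrocarbons of smoke and metabolites of tryptophan move it into the nucleus, where it pairs with ARNT and binds xenobiotic response elements. CYP1A1 and CYP1B1, which oxidise many of these ligands, are its classical targets in airway epithelium. AHRR, which competes with AHR for ARNT, and TIPARP, an ADP-ribosyltransferase that acts on AHR, are targets that feed back on the receptor.

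RNA was sequenced from A549, an established human lung adenocarcinoma line. LKB1-deficient cells (titled con) and LKB1-intact cells (labelled WT) were each pretreated with high-dose AA (titled VitC) or with PBS. Each of these 4 groups had 3 libraries: deficient with AA, deficient with PBS, intact with AA and intact with PBS. LKB1, encoded by STK11, is a kinase that activates AMPK. A549 is generally described as lacking functional LKB1, and neither the way the genotypes were made nor the AA dose and exposure time is given here. No label ties the 3 libraries of a group to separate cultures, and the p-values therefore reflect library-to-library spread that may be only technical.

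Libraries held 16055534 to 20306129 estimated counts. STK11 averaged 6.64 ± 0.910 CPM (counts scaled to library size and TMM composition factors) in deficient cells with AA and 5.79 ± 0.862 in deficient cells with PBS, against 26.1 ± 2.0 in intact cells with AA and 24.5 ± 0.917 in intact cells with PBS (SD, n = 3 each). Among epithelial markers, KRT8 stood at 754 to 2010 CPM and KRT18 at 693 to 1440 CPM over the 12 libraries, whereas EPCAM stood at 6.38 to 11.3, CDH1 at 0.735 to 2.43 and KRT19 at 0.0541 to 0.5 CPM. The 5 epithelial markers summed to 1770 to 1810 CPM in deficient cells with AA, 1930 to 2100 in deficient cells with PBS, 3330 to 3470 in intact cells with AA and 2170 to 2250 in intact cells with PBS. Of the markers of other cell types, CD3E and COL1A2 were at 0 in every library, PTPRC was at 0 to 0.0607 CPM and PECAM1 at 0 to 0.219 CPM. The 3 endothelial markers, mostly CDH5, summed to 0.719 to 1.68 CPM in deficient cells with AA, 6.56 to 9.22 in deficient cells with PBS, 3.21 to 4.29 in intact cells with AA and 9.19 to 10.7 in intact cells with PBS. The 4 fibroblast markers, mostly COL1A1, summed to 11.3 to 12.4 CPM in deficient cells with AA, 12.4 to 13.1 in deficient cells with PBS, 16.1 to 17 in intact cells with AA and 12.2 to 14 in intact cells with PBS. The 4 immune markers summed to 0.367 to 0.766 CPM in deficient cells with AA, 0 to 0.307 in deficient cells with PBS, 0.834 to 1.47 in intact cells with AA and 0.126 to 0.378 in intact cells with PBS. All 4 sums differed between some of the groups compared below, and their part in the results was not tested.

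The promoters of the receptor, its repressors and CYP1A1 are shown because AHR with ARNT binds the core GCGTG of the xenobiotic response element, so the letters let the expression values be read beside the presence of that core in these windows. Sequence outside the windows was not searched. Each is 250 bases before and 50 after a start listed by RefSeq on GRCh38.p14, written 5′ to 3′ on the gene's strand, with the core (GCGTG, or CACGC where it lies on the opposite strand) in capitals.
AHR: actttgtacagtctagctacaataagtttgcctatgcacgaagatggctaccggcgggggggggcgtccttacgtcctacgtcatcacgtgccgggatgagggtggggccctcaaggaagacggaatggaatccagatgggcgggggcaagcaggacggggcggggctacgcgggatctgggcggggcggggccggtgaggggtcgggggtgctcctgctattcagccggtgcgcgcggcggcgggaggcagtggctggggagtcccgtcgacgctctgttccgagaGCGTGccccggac
AHRR: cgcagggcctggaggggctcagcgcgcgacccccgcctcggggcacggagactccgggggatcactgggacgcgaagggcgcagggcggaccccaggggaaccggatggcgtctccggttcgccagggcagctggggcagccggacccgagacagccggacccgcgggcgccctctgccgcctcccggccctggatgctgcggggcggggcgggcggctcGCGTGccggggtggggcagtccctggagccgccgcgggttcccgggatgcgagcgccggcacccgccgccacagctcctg
TIPARP: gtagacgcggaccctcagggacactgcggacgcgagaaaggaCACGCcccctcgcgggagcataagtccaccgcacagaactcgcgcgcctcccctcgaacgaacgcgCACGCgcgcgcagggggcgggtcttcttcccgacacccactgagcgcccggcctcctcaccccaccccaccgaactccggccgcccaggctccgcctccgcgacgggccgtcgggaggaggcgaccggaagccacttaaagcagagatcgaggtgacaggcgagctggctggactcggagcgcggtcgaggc
CYP1A1: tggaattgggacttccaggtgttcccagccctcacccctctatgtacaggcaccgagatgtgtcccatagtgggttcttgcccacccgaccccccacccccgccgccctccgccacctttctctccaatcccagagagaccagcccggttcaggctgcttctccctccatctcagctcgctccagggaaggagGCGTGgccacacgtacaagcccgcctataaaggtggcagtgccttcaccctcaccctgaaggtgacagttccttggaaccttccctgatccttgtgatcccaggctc

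These windows lie at chr7:17298402-17298701 on the plus strand for AHR, chr5:321464-321763 on the plus strand for AHRR, chr3:156674340-156674639 on the plus strand for TIPARP and chr15:74725479-74725778 on the minus strand for CYP1A1. CYP1A1 held 1 core, 57 to 53 bases before the start, upstream of a TATA box 32 to 27 bases before it. AHRR held 1 core 30 to 26 bases before the start shown, and its second listed start held 2. TIPARP held 2 cores on the opposite strand, 208 to 204 and 142 to 138 bases before the start shown, and none in the windows of its other 2 starts. AHR held 1 core, 38 to 42 bases after its start. Searched on both strands, GCGTG stood in 36.5% of the 35116 promoter windows of this length in the table, the hypoxia response core ACGTG in 21.4%, the GC box GGGCGG in 45%, the TATA box TATAAA in 11.5% and the cyclic AMP response half-site TGACG in 24.6%. A match describes the letters and not a bound site. The hypoxia core, bound by the ARNT dimers of the hypoxia factors, stood on the opposite strand 48 to 44 bases before the CYP1A1 start, and on both strands at 165 to 160 bases before the AHR start, where the 2 matches overlap. The windows shown hold 61.0% (CYP1A1) to 79.3% (AHRR) G and C. ARNT2 and CYP1B1 are named only.

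**Figure D1:**
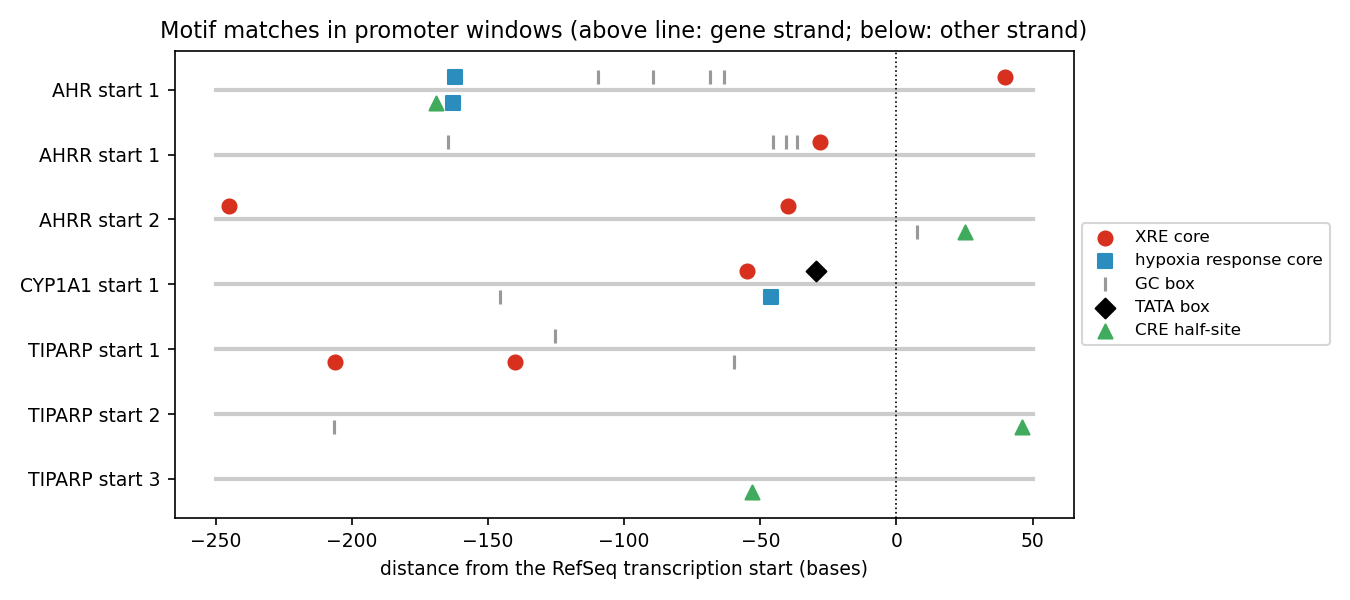
Position of 5 short motifs in the 7 promoter windows of AHR, AHRR, CYP1A1 and TIPARP, as distance in bases from the listed start (x axis), 1 row per start, with each symbol a match on either strand. The core GCGTG occurs in 5 of the 7 windows, and in CYP1A1 it stands 57 to 53 bases before the start.

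AA moved 5 of the 6 genes in deficient cells and 5 of 6 in intact cells, but not the same way (edgeR's quasi-likelihood test, with p adjusted by Benjamini-Hochberg over all 12718 genes and a threshold of 0.05). In deficient cells 3 rose (AHR, CYP1A1, CYP1B1), 2 fell (AHRR, ARNT2) and TIPARP was not called, in a comparison that called 74.4% of all genes, 37.0% higher and 37.4% lower. In intact cells 2 rose (AHR, CYP1A1), 3 fell (AHRR, TIPARP, CYP1B1) and ARNT2 was not called, where 69.8% of all genes were called, 34.5% higher and 35.2% lower. The AA effect itself differed between the genotypes for all 6, higher in deficient cells for AHR, TIPARP, CYP1A1 and CYP1B1 and lower for AHRR and ARNT2, where 44.6% of all genes were called, 21.6% higher and 23.0% lower. With so many genes called, a count of members says little about these 6, and the values below carry the description. The median log2 change of the 6 was 0.14 in deficient and -0.14 in intact cells, beside 0.01 for all tested genes in each genotype.

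**Figure D2:**
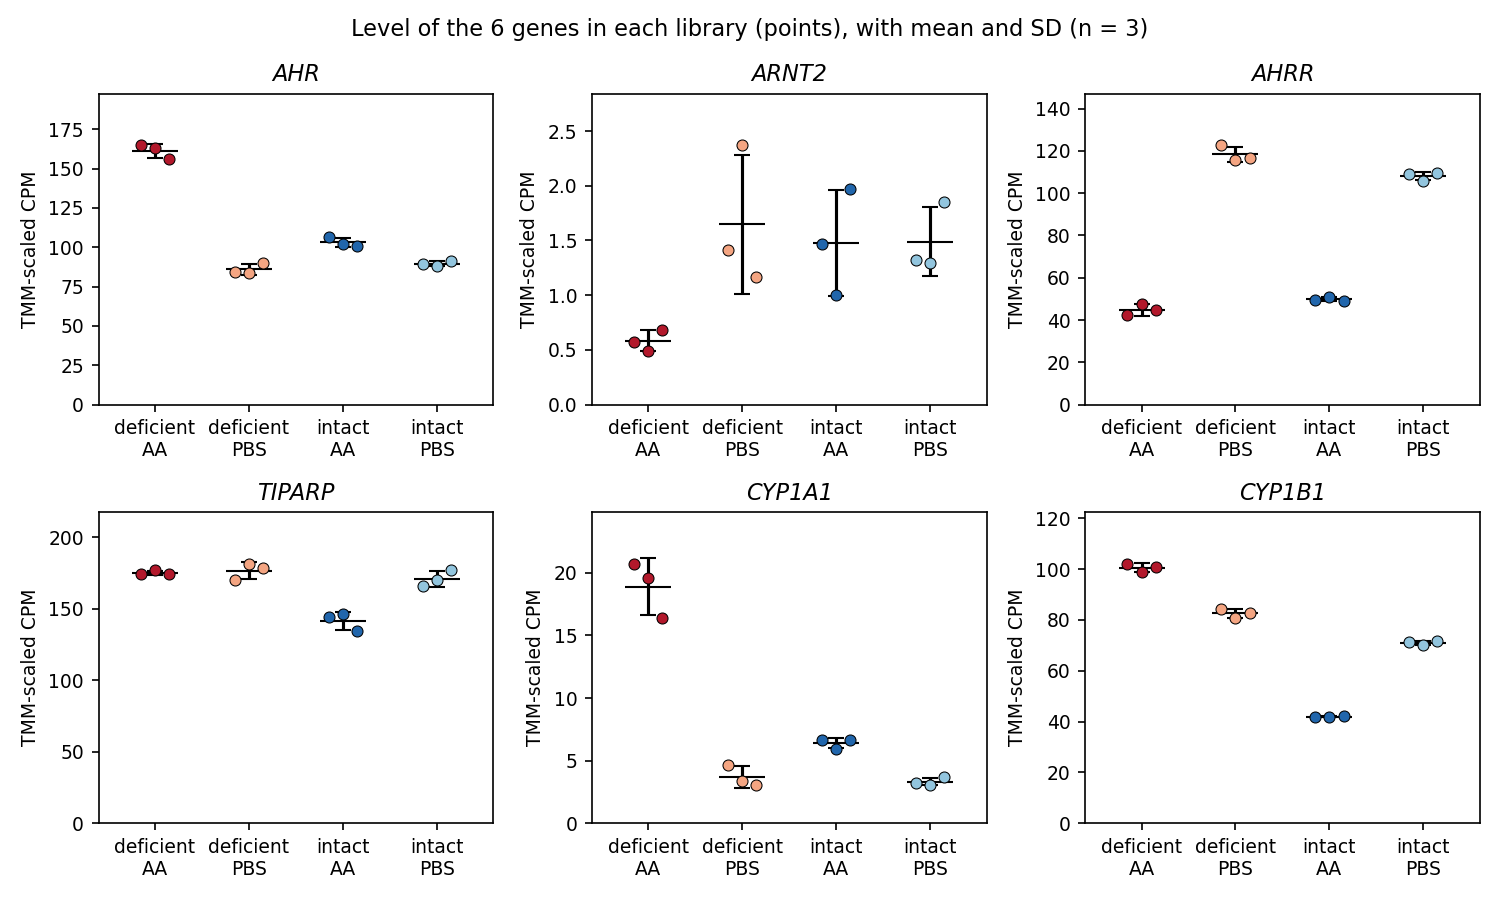
TMM-scaled CPM (y axis, from 0) of the 6 genes in each of the 12 libraries (points), with the mean and SD of 3 libraries, in deficient cells with AA, deficient cells with PBS, intact cells with AA and intact cells with PBS. CYP1A1 and AHR stand highest in deficient cells with AA, AHRR is low in both AA groups, and CYP1B1 is lowest in intact cells with AA.

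AHR (ENSG00000106546, chromosome 7, 16916359 to 17346152, plus strand, protein-coding in GENCODE release 29 on GRCh38) is the receptor itself. The second identifier deposited under this symbol, ENSG00000283321, overlaps it and is a separate gene, AC019117.2, in GENCODE. AHR measured 165, 163 and 156 CPM in deficient cells with AA, against 84.2, 83.6 and 89.9 CPM in deficient cells with PBS. It measured 106, 102 and 101 CPM in intact cells with AA, against 89.1, 88.2 and 91.4 CPM in intact cells with PBS. All 3 AA libraries lay above all 3 PBS libraries in each genotype, and the deficient cells with AA lay above every other library. The rise was 1.88-fold in deficient cells (log2 change 0.91, SE 0.0392, adjusted p = 6.81e-15, edgeR) and 1.15-fold in intact cells (log2 change 0.20, SE 0.0401, adjusted p = 0.000134, edgeR). The effects differed by 0.71 log2 (SE 0.0562, adjusted p = 1.45e-09, edgeR). In these bulk samples more or fewer cells expressing a gene and more or less of its RNA per cell cannot be told apart. With a trend of expression on transcript length removed from each library, the log2 change was 1.25 in deficient cells and 0.46 in intact cells.

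Between genotypes, AHR did not pass the test under PBS (log2 difference -0.06, adjusted p = 0.736, edgeR) and was higher in deficient than in intact cells under AA (0.65, SE 0.0380, adjusted p = 3.84e-12, edgeR).

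ARNT2 (ENSG00000172379; chromosome 15, 80404350 to 80597937, plus strand, overlapped by antisense genes) is a paralogue of ARNT best known from neural tissue. It was rare, with 9 to 39 estimated counts in a library. Its level was 0.575, 0.493 and 0.682 CPM in deficient cells with AA, against 1.41, 2.37 and 1.17 CPM in deficient cells with PBS. In intact cells it was 1.47, 1.00 and 1.97 CPM with AA, against 1.32, 1.3 and 1.85 CPM with PBS. The deficient cells with AA lay below all other libraries, and the 2 intact groups overlapped. The log2 change was -1.49 in deficient cells (SE 0.376, adjusted p = 0.00126, edgeR) and -0.01 in intact cells (adjusted p = 0.985, edgeR), and the effects differed by -1.48 (SE 0.504, adjusted p = 0.0208, edgeR). That difference was lost without replicate 3 of intact cells with AA (-1.22, adjusted p = 0.0746, edgeR), without replicate 2 of deficient cells with PBS (-1.12, adjusted p = 0.0897, edgeR) and on the log2(FPKM + 0.1) scale (-0.65, adjusted p = 0.184, limma). On that scale the fall in deficient cells was -0.69 (adjusted p = 0.0246, limma).

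Under AA, ARNT2 was lower in deficient than in intact cells (log2 difference -1.34, SE 0.376, adjusted p = 0.00428, edgeR), a call lost on the log2(FPKM + 0.1) scale (-0.59, adjusted p = 0.0661, limma). Under PBS its log2 difference was 0.14 (adjusted p = 0.934, edgeR). ARNT, the usual partner of AHR and of the hypoxia-inducible factors, averaged 56.1 CPM in deficient cells with AA and 62.1 CPM in deficient cells with PBS, and 62.7 CPM in intact cells with AA and 60.9 CPM in intact cells with PBS. It fell in deficient cells (log2 change -0.15, SE 0.0511, adjusted p = 0.0125, edgeR) and had a value of 0.04 in intact cells (adjusted p = 0.475, edgeR).

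AHRR (ENSG00000063438; chromosome 5, 304176 to 438291, plus strand) encodes the repressor that occupies ARNT and the response elements in place of AHR. It had 42.2, 47.7 and 44.8 CPM in deficient cells with AA, against 123, 116 and 116 CPM in deficient cells with PBS. It had 49.3, 51.0 and 49.2 CPM in intact cells with AA, against 109, 106 and 109.5 CPM in intact cells with PBS. Every AA library was below every PBS library, in both genotypes. AHRR fell 2.64-fold in deficient cells (log2 change -1.40, SE 0.0458, adjusted p = 6.12e-17, edgeR) and 2.17-fold in intact cells (log2 change -1.12, SE 0.0455, adjusted p = 5.68e-15, edgeR). The fall was deeper in deficient cells by -0.28 log2 (SE 0.0649, adjusted p = 0.00117, edgeR), which was not called on log2(FPKM + 1) (-0.08, adjusted p = 0.515, limma) or log2(FPKM + 0.1) (-0.09, adjusted p = 0.531, limma).

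Under AA, AHRR was lower in deficient than in intact cells by a log2 difference of -0.15 (SE 0.0493, adjusted p = 0.011, edgeR), and this call was lost without replicate 1 of deficient cells with AA (-0.11, adjusted p = 0.0895, edgeR), with library size alone (-0.10, adjusted p = 0.107, edgeR), with the length trend removed (-0.05, adjusted p = 0.377, edgeR) and on log2(FPKM + 1), where it turned to 0.01 (adjusted p = 0.869, limma). Under PBS the log2 difference was 0.13 (SE 0.0423, adjusted p = 0.296, edgeR). AHRR overlaps PDCD6, and a readthrough of both genes is counted apart, at a mean of 3.24 CPM in deficient cells with AA, 3.57 in deficient cells with PBS, 3.50 in intact cells with AA and 6.32 in intact cells with PBS, so how reads were shared between them is uncertain. The fall of AHRR kept its direction and call in each genotype under all 27 other settings. Among these was a fit with the readthrough added to AHRR.

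TIPARP (ENSG00000163659; chromosome 3, 156673235 to 156706770, plus strand, overlapping the antisense TIPARP-AS1) encodes a mono-ADP-ribosyltransferase whose modification of AHR limits its signalling. Its level was 174, 177 and 174 CPM in deficient cells with AA, against 170.3, 181 and 178 CPM in deficient cells with PBS. In intact cells it was 144, 146 and 135 CPM with AA, against 166, 170.4 and 177 CPM with PBS. The deficient groups overlapped, and the intact cells with AA lay below every other library. TIPARP fell in intact cells (log2 change -0.27, SE 0.0378, adjusted p = 1.54e-06, edgeR), and its value in deficient cells was -0.01 (SE 0.0372, adjusted p = 0.75, edgeR). The difference of the effects was 0.26 (SE 0.0530, adjusted p = 0.000395, edgeR). With the length trend removed the log2 change in deficient cells was 0.12 (adjusted p = 0.00271, edgeR), and in intact cells -0.18.

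TIPARP did not pass between genotypes under PBS (log2 difference 0.05, adjusted p = 0.786, edgeR) and was higher in deficient than in intact cells under AA (0.31, SE 0.0375, adjusted p = 3.89e-07, edgeR). Of the 2 feedback genes, AHRR fell in both genotypes and TIPARP was called in intact cells.

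CYP1A1 (ENSG00000140465; chromosome 15, 74719542 to 74725610, minus strand, with no overlapping gene) encodes the monooxygenase used as the usual readout of AHR activity. It had 20.7, 19.6 and 16.4 CPM in deficient cells with AA, against 4.66, 3.40 and 3.01 CPM in deficient cells with PBS. It had 6.65, 5.95 and 6.62 CPM in intact cells with AA, against 3.21, 3.08 and 3.65 CPM in intact cells with PBS. Each AA group lay above its PBS group, and deficient cells with AA lay above all other libraries. The rise was 5.12-fold in deficient cells (log2 change 2.35, SE 0.143, adjusted p = 2.09e-12, edgeR) and 1.93-fold in intact cells (log2 change 0.95, SE 0.160, adjusted p = 2.06e-05, edgeR). The effect in deficient cells exceeded that in intact cells 2.65-fold (log2 difference 1.41, SE 0.221, adjusted p = 2.14e-05, edgeR).

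The estimated counts behind CYP1A1 were 432, 358 and 312 in deficient cells with AA, against 76, 56 and 49 in deficient cells with PBS. In intact cells they were 122, 107 and 128 with AA, against 51, 57 and 65 with PBS. In intact cells the rise was not called on the FPKM scales (log2 change 0.40 with a pseudocount of 1, adjusted p = 0.06, limma). The transcript length implied by the ratio of the count and FPKM tables was 2240 bases in intact cells with AA and 1717 bases in intact cells with PBS for this gene, and 1866 and 1984 bases in deficient cells with AA and with PBS. Under AA, CYP1A1 was 2.95-fold higher in deficient than in intact cells (log2 difference 1.56, SE 0.129, adjusted p = 9.63e-10, edgeR), and under PBS the log2 difference was 0.15 (adjusted p = 0.861, edgeR).

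CYP1B1 (ENSG00000138061; chromosome 2, 38066973 to 38109902, minus strand) encodes a related monooxygenase that acts on polycyclic hydrocarbons and estrogens. It overlaps RMDN2 on the plus strand, and no source used here says whether reads were counted by strand. Its level was 102, 98.7 and 101 CPM in deficient cells with AA, against 84.3, 80.7 and 82.8 CPM in deficient cells with PBS. In intact cells it was 41.7, 41.9 and 42.3 CPM with AA, against 71.4, 70.2 and 71.6 CPM with PBS. The 4 groups did not overlap, with AA above PBS in deficient cells and below PBS in intact cells. CYP1B1 rose 1.22-fold in deficient cells (log2 change 0.28, SE 0.0379, adjusted p = 6.73e-07, edgeR) and fell 1.69-fold in intact cells (log2 change -0.76, SE 0.0420, adjusted p = 8.96e-13, edgeR). The effects differed by 1.04 log2 (SE 0.0566, adjusted p = 3.25e-12, edgeR), and with the length trend removed the log2 change was 0.59 in deficient and -0.53 in intact cells.

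CYP1B1 was the 1 gene of the 6 called between genotypes under PBS, where 0.275% of all genes were called, 7 genes (0.0550%) higher and 28 (0.220%) lower in deficient cells. It was higher in deficient than in intact cells by 0.22 log2 (SE 0.0395, adjusted p = 0.0191, edgeR). This call was lost without any 1 of the 3 intact libraries with PBS (adjusted p 0.059 to 0.094, edgeR) or without replicate 1 or 3 of deficient cells with PBS (adjusted p = 0.1 and 0.0576, edgeR), and on the FPKM scales (0.18 with a pseudocount of 1, adjusted p = 0.404, limma). Under AA it was 2.40-fold higher in deficient than in intact cells (log2 difference 1.26, SE 0.0404, adjusted p = 1.31e-16, edgeR). All 6 genes were called between genotypes under AA, 4 higher and 2 lower in deficient cells, where 59.0% of all genes were called, 28.7% higher and 30.3% lower.

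**Figure D3:**
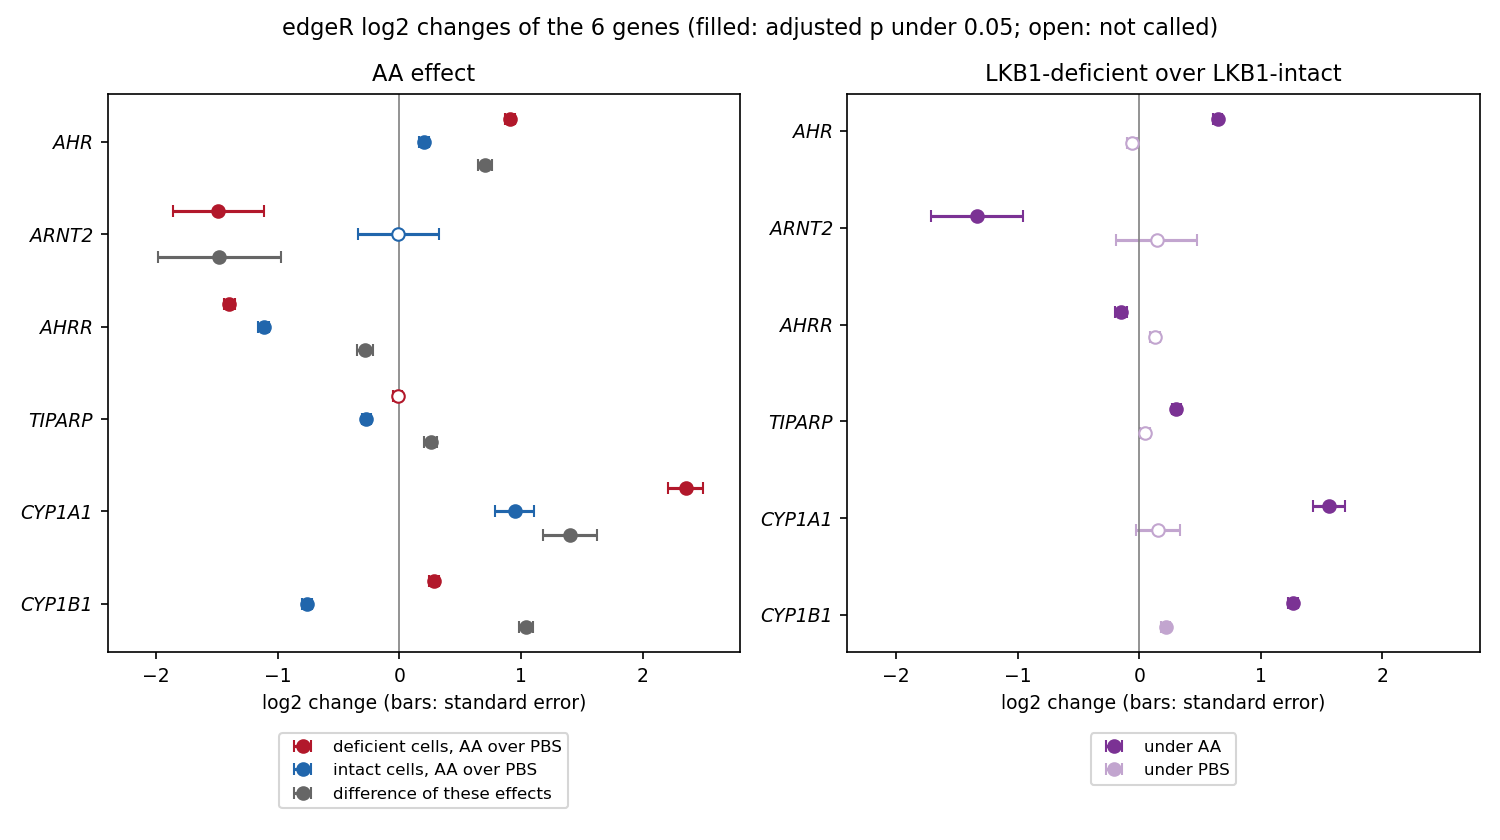
Log2 changes of the 6 genes (x axis) with standard errors, for AA over PBS in deficient and intact cells and their difference (left), and for deficient over intact cells under AA and PBS (right). CYP1B1 lies at 0.28 in deficient and -0.76 in intact cells, and CYP1A1 at 2.35 and 0.95.

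The balance of receptor and repressor, and of both enzymes, was read on the FPKM scale, which divides by length and so allows genes to be set beside each other. The mean level of AHR was 28.5 FPKM in deficient cells with AA and 15.2 FPKM in deficient cells with PBS, and that of AHRR was 9.59 and 22.4 FPKM in the same groups. In intact cells AHR had 18.1 FPKM with AA and 15.6 FPKM with PBS, and AHRR 9.45 and 20.8 FPKM. The ratio of AHR to AHRR was 2.99 ± 0.356 in deficient cells with AA, against 0.682 ± 0.0527 in deficient cells with PBS, and 1.92 ± 0.0559 in intact cells with AA, against 0.750 ± 0.0109 in intact cells with PBS (SD, n = 3). AHR was thus above AHRR in all libraries with AA and below it in all with PBS. The ratio of CYP1A1 to CYP1B1 was 0.523 ± 0.0654 in deficient cells with AA, against 0.122 ± 0.0524 in deficient cells with PBS, and 0.357 ± 0.0465 in intact cells with AA, against 0.139 ± 0.0280 in intact cells with PBS (SD, n = 3). The length implied for CYP1A1 was 2240 bases in intact cells with AA and 1717 bases with PBS. The ratios of the 2 enzymes in intact cells therefore also carry this shift in length.

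TIPARP was the most abundant of the 6 in every group, at 40.2 to 52.1 FPKM in the group means, and ARNT2 the least, at 0.112 to 0.250 FPKM. CYP1A1 had a mean of 10.4 FPKM in deficient cells with AA, against 1.95 FPKM in deficient cells with PBS, and 2.85 FPKM in intact cells with AA, against 1.93 FPKM in intact cells with PBS. In deficient cells with AA the order below TIPARP was AHR, CYP1B1, CYP1A1, AHRR and ARNT2, and CYP1A1 (8.96 to 11.7 FPKM) overlapped AHRR (8.68 to 10.7 FPKM). In deficient cells with PBS it was AHRR, CYP1B1, AHR, CYP1A1 and ARNT2, and CYP1B1 (15.6 to 16.3 FPKM) overlapped AHR (14.8 to 15.6 FPKM). In intact cells the order was AHR, AHRR, CYP1B1, CYP1A1 and ARNT2 with AA and AHRR, AHR, CYP1B1, CYP1A1 and ARNT2 with PBS, and no neighbours overlapped.

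**Figure D4:**
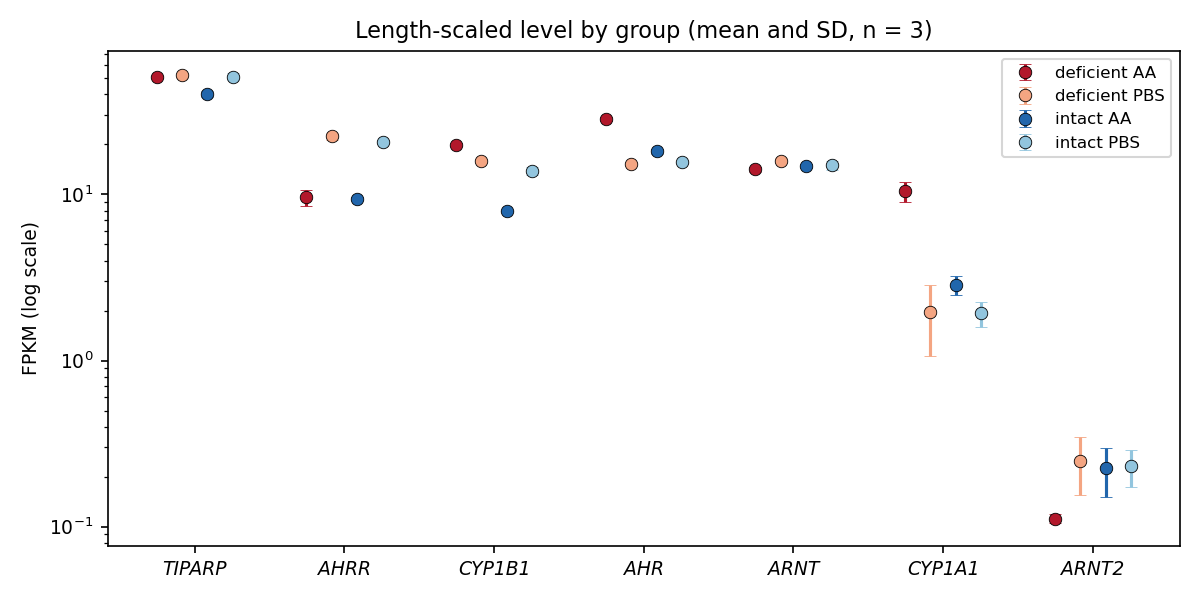
Mean FPKM (y axis, log scale) of the 6 genes and ARNT in deficient cells with AA, deficient cells with PBS, intact cells with AA and intact cells with PBS, with the SD of 3 libraries as bars. TIPARP stands at 40.2 to 52.1 FPKM in the group means, and ARNT2 at 0.112 to 0.250 FPKM.

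The wider machinery of the receptor was described from lists of genes, some of which hold members of the 6. The counts of these lists stand against shares over all tested genes of 74.4% called in deficient cells (37.0% higher, 37.4% lower) and 69.8% in intact cells (34.5% higher, 35.2% lower), with an all-gene median log2 change of 0.01 in each genotype. The list of the AHR complex and its chaperones had 10 genes, all tested, with the members AHR, ARNT2, AHRR and TIPARP among them. Of the 10, 4 rose, 5 fell and 1 was not called in deficient cells. In intact cells 6 rose, 2 fell (AHRR and TIPARP) and 2 were not called. The median log2 change of the 10 was -0.08 in deficient and 0.14 in intact cells. The chaperones HSP90AA1 and HSP90AB1, which hold the receptor in its ligand-free state, fell in deficient cells, HSP90AA1 by a log2 change of -0.99 (SE 0.0251, adjusted p = 8.99e-19, edgeR) and HSP90AB1 by -0.55 (SE 0.0192, adjusted p = 1.98e-16, edgeR). In intact cells they rose by 0.09 (SE 0.0247, adjusted p = 0.00229, edgeR) and 0.18 (SE 0.0191, adjusted p = 3.33e-08, edgeR). PTGES3, which encodes p23, rose by 0.29 log2 in deficient cells (SE 0.0264, adjusted p = 2.41e-09, edgeR). Its rise in intact cells was 0.37 log2 (SE 0.0264, adjusted p = 5.16e-11, edgeR). STUB1, also on this list, rose by 0.42 log2 in deficient cells (SE 0.0599, adjusted p = 1.71e-06, edgeR). In intact cells STUB1 rose by 0.21 log2 (SE 0.0601, adjusted p = 0.00406, edgeR).

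Of 24 genes listed as AHR targets, 21 were tested (not CYP1A2, UGT1A6 and SERPINB2), the 4 members CYP1A1, CYP1B1, AHRR and TIPARP among them. In deficient cells 13 rose, 3 fell and 5 were not called, and in intact cells 12 rose, 7 fell and 2 were not called, where 74.4% and 69.8% of all genes were called. The medians were 0.66 in deficient and 0.35 in intact cells, beside 0.01 over all genes in each. Between genotypes under AA, 11 were higher and 3 lower in deficient cells, where 28.7% of all genes were higher and 30.3% lower. The AA effect was higher in deficient cells for 9 and lower for 3, where 21.6% of all genes were higher and 23.0% lower. Under PBS, CYP1B1 was the 1 target called. IGFBP1, which binds insulin-like growth factors, averaged 160.4 CPM in deficient cells with AA and 27.0 CPM in deficient cells with PBS, against 38.9 CPM in intact cells with AA and 29.1 CPM in intact cells with PBS. It rose by 2.57 log2 in deficient cells (SE 0.0617, adjusted p = 3.06e-19, edgeR) and 0.42 log2 in intact cells (SE 0.0684, adjusted p = 1.36e-05, edgeR). STC2, a secreted glycoprotein, rose by 1.88 log2 in deficient cells (SE 0.0428, adjusted p = 1.48e-19, edgeR) and fell by 0.18 in intact cells (SE 0.0468, adjusted p = 0.00143, edgeR). Other targets fell. SLC7A5 had log2 changes of -0.29 in deficient cells (adjusted p = 5.18e-09, edgeR) and -0.73 in intact cells (adjusted p = 1.86e-15, edgeR). For NEDD9 they were -0.92 (adjusted p = 8.9e-08, edgeR) and -0.34 (adjusted p = 0.00429, edgeR). CDKN1B fell in intact cells (-0.32, adjusted p = 2.74e-06, edgeR) and was not called in deficient cells (-0.08, adjusted p = 0.0996, edgeR).

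PTGS2, the inducible cyclooxygenase, rose by 2.67 log2 in deficient cells (SE 0.0711, adjusted p = 1.99e-18, edgeR) and 2.75 log2 in intact cells (SE 0.0719, adjusted p = 4.43e-18, edgeR), and the difference of its effects was not called (-0.08, SE 0.108, adjusted p = 0.566, edgeR). The target enzymes NQO1, ALDH3A1 and CYP2S1 gave smaller values than PTGS2 in both genotypes. NQO1, a quinone reductase, rose by 0.16 log2 in deficient and 0.23 log2 in intact cells. ALDH3A1, an aldehyde dehydrogenase, rose by 0.73 log2 in deficient and 1.08 log2 in intact cells, and CYP2S1, another monooxygenase, by 1.36 log2 in deficient and 0.96 log2 in intact cells. None of these 3 passed the test of the difference (adjusted p = 0.136, 0.14 and 0.0555, edgeR).

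**Figure D5:**
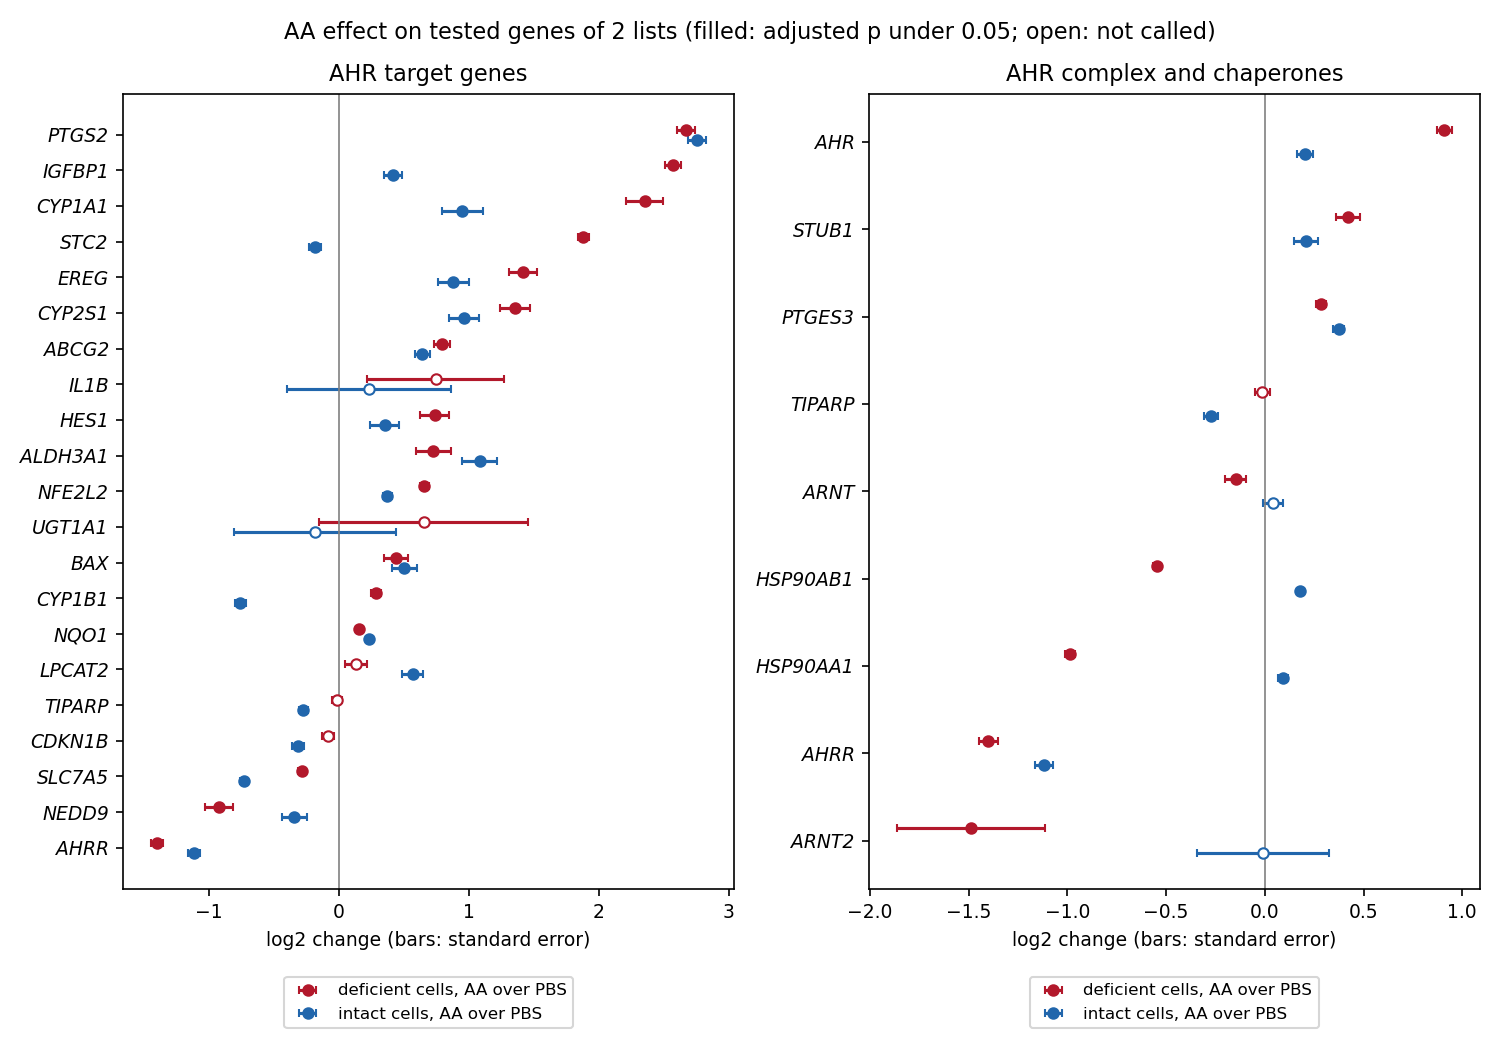
Log2 change under AA (x axis) with standard errors for the 21 tested AHR target genes (left) and 9 genes of the AHR complex and chaperones (right), in deficient cells and intact cells, with filled points called at an adjusted p under 0.05. AHRR falls in both, and HSP90AA1 falls in deficient cells and rises in intact cells.

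AHR shares its family with the hypoxia-inducible factors and the clock proteins. Of 22 such genes, 19 were tested, the members AHR, AHRR and ARNT2 among them. In deficient cells 7 rose, 9 fell and 3 were not called, against 4, 8 and 7 in intact cells. The medians were -0.15 in deficient and -0.10 in intact cells, where 74.4% and 69.8% of all genes were called. BMAL1, a clock factor, rose by 1.98 log2 in deficient cells (SE 0.0705, adjusted p = 2.63e-16, edgeR) and 0.88 log2 in intact cells (SE 0.0738, adjusted p = 7.45e-10, edgeR). The clock genes BMAL2 and PER3 fell in both genotypes. BMAL2 had log2 changes of -0.84 in deficient cells (adjusted p = 7.26e-12, edgeR) and -0.79 in intact cells (adjusted p = 4.99e-11, edgeR). For PER3 they were -0.85 (adjusted p = 2.62e-09, edgeR) and -0.80 (adjusted p = 1.14e-08, edgeR). HIF1A, the hypoxia factor that also pairs with ARNT, rose by 0.45 log2 in deficient cells (SE 0.0321, adjusted p = 3.72e-11, edgeR) and had a value of -0.04 in intact cells (adjusted p = 0.327, edgeR). Tryptophan breakdown supplies endogenous AHR ligands. The enzymes that open it were too low to be tested, IDO1 with 53 estimated counts over the 12 libraries, IDO2 with 10, IL4I1 with 15.3 and TDO2 with 0. Of 14 listed enzymes 6 were tested, none of them one of these 4, of which 4 rose and 1 fell in deficient cells, and 4 rose and 2 were not called in intact cells, with medians of 0.59 in deficient and 0.34 in intact cells, where 74.4% and 69.8% of all genes were called. KYNU, which cleaves kynurenine, rose by 0.60 log2 in deficient (SE 0.0340, adjusted p = 6.08e-13, edgeR) and 0.28 log2 in intact cells (SE 0.0343, adjusted p = 2.79e-07, edgeR).

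The genes most like each of the 6 over the 12 libraries were found by the root mean square difference of mean-centred log2 CPM, as a description only. AHR, whose own spread over the libraries was 0.362, lay nearest to RIOK3 (0.0502), SKA3 (0.0521) and GPS2 (0.0611). For ARNT2, with a spread of 0.611, the nearest were CPOX (0.264), BCL6B (0.274) and GDPGP1 (0.278), at larger distances. AHRR, with a spread of 0.634, lay close to RANBP6 (0.0652) and SLC35D1 (0.0827). TIPARP varied least, with a spread of 0.136, and lay nearest to IBTK (0.0347), SCYL2 (0.041) and UBE3A (0.044). CYP1A1 varied most, with a spread of 0.995, and lay close to H2AC6 (0.18) and TSC22D3 (0.184). CYP1B1, with a spread of 0.467, lay nearest to SLC7A11 (0.0906), BLTP3A (0.0951) and FGF2 (0.0971).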

How the data were processed

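RNA from A549 cells was sequenced in 12 libraries, which the titles and labels place in 4 groups of 3. Per the submitters' processing notes, the software was RSEM, StringTie 1.3.1, HISAT2 2.1.0, Bowtie2 2.2.8 and fastp 0.18.0, without their roles. No source used here names the build or says whether strand was used. The authors' deposited estimated counts carry a fraction in 10.9 to 11.5% of the values of a library. Their deposited FPKM values are scaled by length and depth and summed to 500366 to 560678 per library. Gene positions are from GENCODE release 29 on GRCh38, not matched to the authors' build.

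After rounding, filterByExpr with a minimum count of 10 kept 12718 genes, holding 99.97% of the counts, and TMM factors were 0.987 to 1.03. edgeR 4.0.16 in R 4.3.3 fitted a quasi-likelihood model with the 4 groups as the factor, and 5 contrasts were tested, with p-values adjusted over all 12718 genes. A standard error is the log2 change divided by the square root of F. The steps were tested on simulated data. Libraries of a group differed by a chi-square of 2.00 to 4.35 per degree of freedom, so none was counted as a copy of another.

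The 6 genes and the gene lists were chosen with earlier results of these data known. Genes named are the 6, the AHR targets and complex, up to 4 called genes of smallest p from each other list in a comparison, the 3 of most similar pattern to each of the 6, and STK11. Some genes that this rule takes are not reported here. FPKM values were tested with limma 3.58.1 on log2(FPKM + 1) and log2(FPKM + 0.1), scales that understate changes of low genes. Other alternatives were DESeq2 1.42.0, limma-voom, other scaling factors and filters, removal of a trend on length, a replicate block and leaving out each library. AHR was also fitted with both of its identifiers summed, and AHRR with the PDCD6 readthrough added.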

Additional observations from a re-analysis of the deposited data

Results flagged for a closer look

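All 6 genes were picked out because the AA effect differed between deficient and intact cells by the test of that difference (edgeR, adjusted over all genes), in a comparison that called 44.6% of all genes. The log2 difference, deficient minus intact, was 0.71 for AHR, -0.28 for AHRR, -1.48 for ARNT2, 1.41 for CYP1A1, 1.04 for CYP1B1 and 0.26 for TIPARP. CYP1B1 moved in opposite directions, up in all 3 deficient libraries with AA against PBS and down in all 3 intact ones. Groups of 3 libraries were too small for a search for single outlying libraries.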

How the results depend on the processing

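Of 774 values of the 6 genes under other settings, 734 kept their direction and side of the threshold, 24 kept their direction and lost the call, and 16 turned. No pairing of the libraries by the numbers in the titles was seen: deviations of same-numbered libraries correlated at -0.0939 to 0.0537, and 1 of 12 was most like one of its own number. Whether same-numbered libraries were prepared together cannot be told from these values, with 3 libraries in a group. With the number as a block, 5, 5, 6, 1 and 6 of the 6 genes were called in deficient cells, intact cells, the difference, the genotypes under PBS and under AA, as without it. In the same order, the fit with the block called 9402, 8776, 5554, 32 and 7402 of all 12718 genes. Under PBS the count of called genes, 1, fell to 0 on the 3 FPKM settings and at an adjusted p under 0.01, and lay between 0 and 1 when a library was left out. Among all genes under PBS, 35 were called, against 111 with no filter, 49 with DESeq2, 4 to 5 on FPKM, 5 at an adjusted p under 0.01 and 6 to 43 with a library left out. The share of calls that were higher was 48.4% for the difference, against 60.3% on log2(FPKM + 1), and 48.7% between genotypes under AA, against 60.3%. Turned values, in log2, were as follows, and the cause was not tested. AHRR between genotypes under AA was 0.0149 with a pseudocount of 1 and 0.0158 with 0.1. ARNT2 in intact cells was 0.0559 with upper quartile factors, 0.30 with the length trend removed and -0.27 to 0.20 with a library left out, and between genotypes under PBS it was -0.21 to 0.34. CYP1A1 between genotypes under PBS was -0.0211 with a pseudocount of 1, -0.0508 with 0.1, and -0.0459 to 0.28 with a library left out. TIPARP in deficient cells was 0.0266 with upper quartile factors, 0.044 with library size alone, 0.12 with the length trend removed, and -0.042 to 0.00879 with a library left out. ARNT2 was not tested on the FPKM settings that required at least 1 FPKM. Depth limits ARNT2 most, at 9 to 39 counts a library.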

Other observations

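TIPARP belongs to the PARP family, of which 16 of 17 listed genes were tested. In deficient cells 8 rose, 5 fell and 3 were not called, and the counts in intact cells were also 8, 5 and 3, with median log2 changes of 0.11 in deficient and 0.06 in intact cells, where 74.4% and 69.8% of all genes were called. ZC3HAV1, an antiviral zinc-finger protein of this family, fell by 0.71 log2 in deficient cells (SE 0.0434, adjusted p = 2.57e-12, edgeR) and rose by 0.27 log2 in intact cells (SE 0.0413, adjusted p = 5.60e-06, edgeR). PARP8 rose by 0.58 log2 in deficient cells (SE 0.0569, adjusted p = 6.29e-09, edgeR) and had a value of 0.02 in intact cells (adjusted p = 0.752, edgeR).

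CYP1A1 and CYP1B1 belong to the microsomal cytochrome P450 system, of which 18 of 27 listed genes were tested, and 9 rose, 3 fell and 6 were not called in each genotype, with medians of 0.18 in deficient and 0.20 in intact cells, beside the same shares over all genes. CYP2U1, a fatty acid hydroxylase, rose by 1.14 log2 in deficient (SE 0.152, adjusted p = 6.55e-07, edgeR) and 1.79 log2 in intact cells (SE 0.143, adjusted p = 3.63e-10, edgeR). CYP51A1, an enzyme of cholesterol synthesis, fell by 0.51 log2 in deficient (SE 0.0359, adjusted p = 2.89e-11, edgeR) and 0.54 log2 in intact cells (SE 0.0360, adjusted p = 2.33e-11, edgeR).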
